A study of Homo sapiens with 12 samples.

Results

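A set of 10 surface molecules by which B cells engage T cells and NK cells were followed by RNA sequencing in 4 stable populations of 2 B-cell lines. They are the costimulatory ligands *CD80*, *CD86* and *ICOSLG*, the inhibitory molecules *CD274*, *PDCD1LG2*, *CD200* and *BTLA*, and the adhesion and signalling molecules *CD48*, *CD58* and *SLAMF1*. The 10 genes were taken by symbol from the deposited tables, which list 22441 genes for MEC1 and 17144 for JVM2, and each of them passed the filter on low counts in both lines. MEC1 and JVM2 are human cell lines derived from B-cell neoplasms and serve as models of chronic lymphocytic leukemia. MEC1-2B17 and JVM2-2B17 cells were made by electroporation with a pcDNA6 vector that holds the coding sequence of human UGT2B17, an enzyme that joins glucuronic acid to steroids and other lipids, and were kept in blasticidin. JVM2-CTRL cells carried the empty pcDNA6 vector under the same antibiotic. MEC1-CTRL cells are labelled as a stable shRNA repression of *UGT2B17* and were kept in puromycin, so the MEC1 arms differ in construct and antibiotic as well as in *UGT2B17*, and these differences cannot be told apart. Each population had 3 biological replicates, and whether a population was 1 clone is not given in the sources used here. In both lines, differences that may have come from making and selecting a population cannot be told apart from those due to *UGT2B17*.

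A T cell responds fully to antigen when its receptor is engaged together with a costimulatory receptor. CD80 and CD86 on B cells bind CD28, which costimulates, and CTLA4, which restrains, while ICOSLG binds ICOS and sustains the help that T cells give to B cells. PD-L1 (*CD274*) and PD-L2 (*PDCD1LG2*) bind PD-1 and dampen the response, CD200 signals through an inhibitory receptor on myeloid and T cells, and BTLA is an inhibitory receptor on B and T cells whose ligand is encoded by *TNFRSF14*. CD58 binds CD2 on T and NK cells, CD48 binds the NK cell receptor CD244, and SLAMF1 binds itself on a neighbouring cell. CD200 and PD-L1 have long been studied on chronic lymphocytic leukemia cells.

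In units of 1e+06 counts, library totals were 31.8 to 37.7 in MEC1 (median 33.7) and 8.81 to 11.2 in JVM2 (median 9.74), so a gene of equal expression was measured with fewer counts in JVM2. *UGT2B17* itself had 447, 371 and 346 counts in the MEC1-CTRL libraries and 766, 673 and 637 in those of MEC1-2B17, which on the log2 scale is a rise of 0.94 (SE 0.069, adjusted *P* = 2.0e-09). In JVM2 it had 299, 281 and 258 counts against 389, 402 and 315 (0.48, SE 0.11, adjusted *P* = 0.0048). The 7 listed B-cell markers, among them *MS4A1*, *CD79A*, *CD79B*, *PAX5*, *CD22* and *CD74*, were all in both tables. They had a summed level of at least 3237 CPM in every library. *CD74* was the largest part of this sum in each population, with means of 1278 to 2423 CPM. CPM is the count of a gene relative to the TMM-scaled total of its library, times 1e+06, and a gene is called higher or lower where the Benjamini-Hochberg adjusted *P* of edgeR's quasi-likelihood test, taken over all genes tested, is below 0.05. With the 12 libraries scaled together, mean *UGT2B17* was 10.4 CPM in MEC1-CTRL and 20.1 CPM in MEC1-2B17. It was 29.7 CPM in JVM2-CTRL and 41.3 CPM in JVM2-2B17, so JVM2-CTRL held more *UGT2B17* transcript than MEC1-2B17. In these bulk samples, fewer cells that carry a transcript and less transcript per cell cannot be told apart.

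Several of the 10 genes lie near another of them. On GRCh38, *CD200* (chromosome 3, 112332347 to 112362812, plus strand) lies beside *BTLA* (112463966 to 112499472, minus strand), and *CD80* (119524293 to 119559614, minus strand) and *CD86* (122055362 to 122121139, plus strand) are further along the same chromosome. *CD274* (chromosome 9, 5450503 to 5470566) adjoins *PDCD1LG2* (5510531 to 5571282), both on the plus strand. *SLAMF1* (chromosome 1, 160608106 to 160647044) and *CD48* (160678746 to 160711831) share the SLAM locus, and *CD58* (116514534 to 116571039) lies elsewhere on chromosome 1, all 3 on the minus strand. *ICOSLG* (ENSG00000160223) lies on chromosome 21 from 44215382 to 44241446, on the minus strand. A near-identical copy of *ICOSLG* (ENSG00000277117, chromosome 21, 5022531 to 5036771) has its own row in the MEC1 table, so how reads were split between both rows is uncertain.

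RefSeq promoters (GRCh38.p14, 250 bases before to 50 after the start) were matched for 9 of the 10 genes, all but *PDCD1LG2*, with 2 for *CD86*. The 250 bases before the start are shown for the 3 adhesion molecules, which are the members called in both lines, and for *CD274*, where letters of the interferon regulatory factor type were found. They are *CD58* (chr1:116571027-116571276, minus strand), *CD48* (chr1:160711823-160712072, minus strand), *SLAMF1* (chr1:160647045-160647294, minus strand) and *CD274* (chr9:5450292-5450541, plus strand), each written 5′ to 3′ in the direction of transcription, with capitals marking the motifs searched.
CD58: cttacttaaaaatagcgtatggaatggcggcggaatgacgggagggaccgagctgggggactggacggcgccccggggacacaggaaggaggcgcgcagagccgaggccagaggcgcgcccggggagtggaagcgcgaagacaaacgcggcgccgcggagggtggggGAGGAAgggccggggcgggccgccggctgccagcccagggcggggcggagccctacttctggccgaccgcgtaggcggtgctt
CD48: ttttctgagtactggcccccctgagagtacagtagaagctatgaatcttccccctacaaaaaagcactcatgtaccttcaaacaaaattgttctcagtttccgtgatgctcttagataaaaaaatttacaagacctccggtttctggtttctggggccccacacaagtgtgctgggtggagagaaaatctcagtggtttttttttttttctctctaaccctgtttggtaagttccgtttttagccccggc
SLAMF1: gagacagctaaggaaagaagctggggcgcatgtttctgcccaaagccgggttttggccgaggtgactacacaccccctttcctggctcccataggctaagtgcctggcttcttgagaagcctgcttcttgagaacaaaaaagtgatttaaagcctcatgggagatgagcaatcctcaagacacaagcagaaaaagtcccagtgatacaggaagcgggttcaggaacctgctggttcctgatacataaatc
CD274: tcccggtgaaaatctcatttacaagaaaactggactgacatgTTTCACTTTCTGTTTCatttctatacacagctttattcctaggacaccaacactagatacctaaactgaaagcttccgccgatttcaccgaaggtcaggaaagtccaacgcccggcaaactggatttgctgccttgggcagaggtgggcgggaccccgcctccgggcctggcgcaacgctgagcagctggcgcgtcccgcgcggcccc

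A set of 4 short motifs were searched on both strands. GAAA, then any 2 bases, then GAAA, of the interferon regulatory factor type, is held by 3.57% of the 35116 promoters in the table and by 1 of the 10 promoters of these genes, that of *CD274*, where 2 overlapping matches on the opposite strand begin at 208 and 202 bases before the start and form the capital run above. GAGGAA, of the PU.1 type, is in 27.9% of all promoters and in those of *CD58*, *CD200* and 1 promoter of *CD86*, the capital letters in *CD58* beginning 83 bases before the start. GGGA, then any 2 bases, then TTCC, of the kappa B type, and TGANTCA, of the AP-1 type, are in 1.61% and 7.71% of all promoters and were not found in these 10 windows. The upstream stretch of *CD58* is 72% G and C, against 54.8% for *CD274*, 50% for *SLAMF1* and 43.2% for *CD48*. The promoters of the adhesion molecules thus differ widely in base composition, around a median of 58.7% over all promoters in the table (there with the 50 bases after the start).

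With UGT2B17 overexpression, 8 of the 10 genes were called in MEC1 and 3 in JVM2, where 41.7% and 29.3% of all genes tested were called. In MEC1, 5 were higher (*CD80*, *ICOSLG*, *CD274*, *BTLA* and *CD48*) and 3 lower (*PDCD1LG2*, *CD58* and *SLAMF1*), beside 20.0% and 21.6% of the 16581 genes tested that were called higher and lower. In JVM2, the 3 genes called were *CD48*, *CD58* and *SLAMF1*, all higher, beside 14.1% of the 13021 genes tested that were called higher and 15.3% called lower. Called changes lay between -0.41 and 0.56 on the log2 scale in MEC1 and between 0.35 and 0.45 in JVM2, and the median over the 10 genes was 0.17 in MEC1 and 0.019 in JVM2, against 0.0026 and 0.00012 over all genes tested. The libraries of both arms did not overlap for 8 of the 10 genes in MEC1 and 5 in JVM2, where 50.1% and 45.2% of all genes tested did not overlap.

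**Figure D1:**
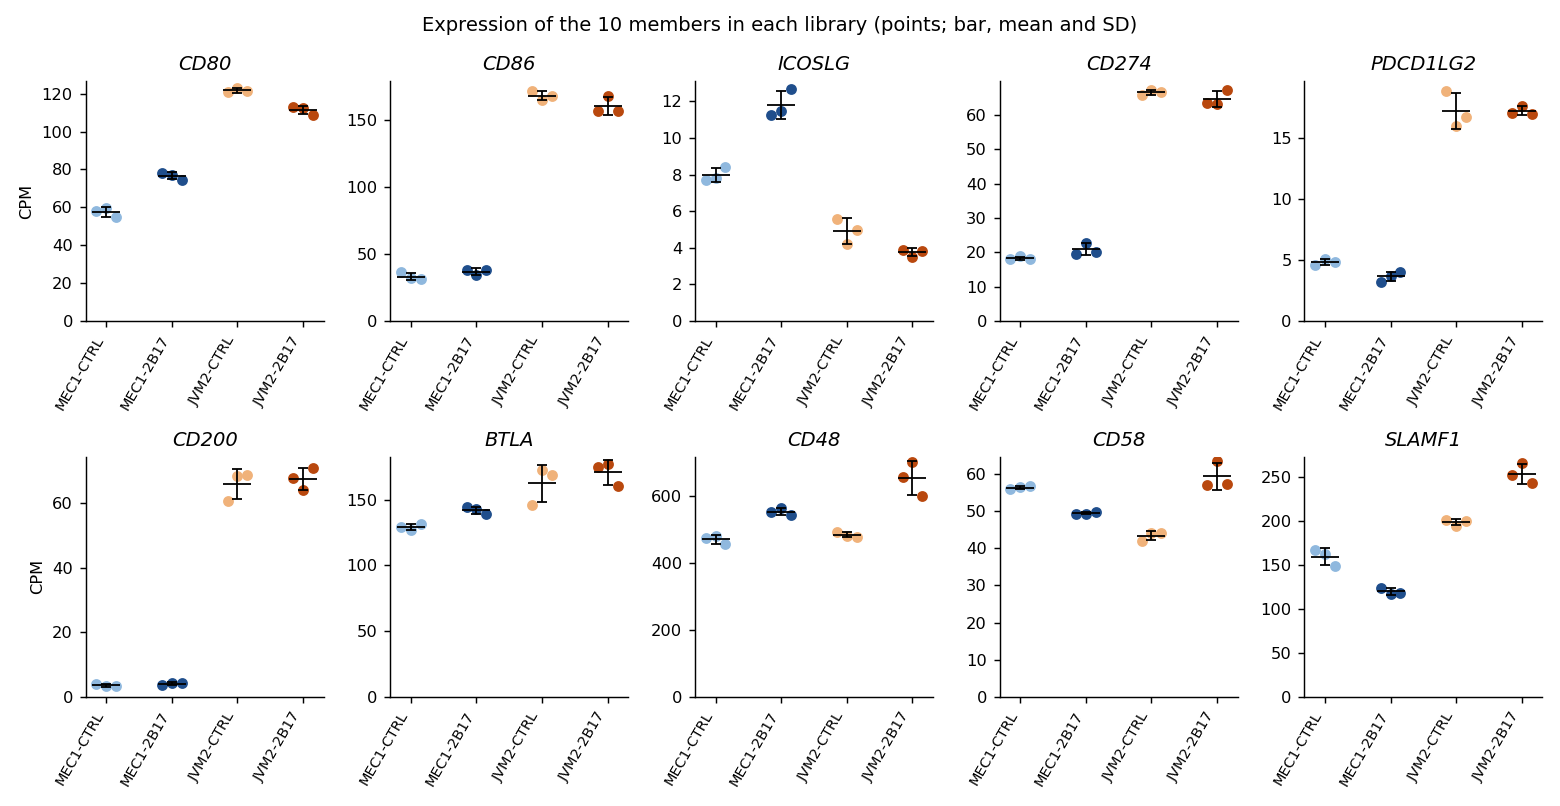
Expression in CPM, scaled within each line, of the 10 genes in each of the 12 libraries (points), with the mean and SD of each population (n = 3, horizontal bar and whiskers). *SLAMF1* and *CD58* step down from CTRL to 2B17 in MEC1 and up in JVM2, and *CD86*, *CD274*, *PDCD1LG2* and *CD200* sit several times higher in both JVM2 populations than in both MEC1 populations.

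Among the costimulatory ligands, *CD80* and *ICOSLG* rose in MEC1-2B17 and the call of *CD86* was not reached. *CD80* had 58.1, 59.8 and 54.9 CPM in the MEC1-CTRL libraries and 78.3, 77.1 and 74.5 CPM in those of MEC1-2B17. Every MEC1-2B17 library was above every control, and the log2 fold change was 0.41 (SE 0.042, adjusted *P* = 1.7e-07), a 1.33-fold rise. In JVM2 *CD80* stood at 121, 123 and 121 CPM in the controls and at 113, 113 and 109 CPM with UGT2B17. All 3 JVM2-2B17 values lay below the controls, yet the log2 fold change of -0.13 did not pass the threshold (95% interval -0.25 to -0.0068, adjusted *P* = 0.10 by edgeR). *CD80* shares 24.8% of its exonic bases with *TIMMDC1*, a gene of the opposite strand, and without strand information their reads cannot be told apart there. *TIMMDC1* moved the other way, with 68.8 and then 63.95 CPM in MEC1, and 54.4 and then 67.6 CPM in JVM2 (log2 fold changes of -0.11 and 0.31, adjusted *P* = 0.045 and 0.0045).

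*ICOSLG*, the lowest of the 10 per kilobase of annotated exon, had the largest change among them in MEC1. It had 7.68, 7.81 and 8.43 CPM in MEC1-CTRL and 11.2, 11.5 and 12.6 CPM in MEC1-2B17. The arms did not overlap, and the rise was 1.48-fold (log2 0.56, SE 0.079, adjusted *P* = 1.0e-05). In JVM2 the libraries held 31 to 56 counts each, or 5.58, 4.20 and 4.99 CPM in the controls and 3.90, 3.49 and 3.85 CPM with UGT2B17. The JVM2 arms did not overlap either, this time with UGT2B17 below, but the log2 difference of -0.39 missed the threshold (SE 0.18, 95% interval -0.77 to 0.0025, adjusted *P* = 0.13). The copy of *ICOSLG* in the MEC1 table had 56 to 84 counts a library and a log2 fold change of 0.15 (adjusted *P* = 0.51).

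*CD86* was called in neither line. Its values were 36.5, 32.0 and 31.0 CPM in MEC1-CTRL and 38.2, 34.1 and 38.2 CPM in MEC1-2B17. The MEC1 arms overlapped, and the log2 fold change of 0.15 missed the threshold (95% interval 0.018 to 0.28, adjusted *P* = 0.063). In JVM2 they were 172, 165 and 168 CPM in the controls and 157, 168 and 157 CPM with UGT2B17 (-0.067, 95% interval -0.19 to 0.058, adjusted *P* = 0.42). Without replicate 1 of MEC1-CTRL, its highest control, the MEC1 difference was 0.22 and was called (adjusted *P* = 0.0050).

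The PD-1 ligands, whose genes adjoin, moved in opposite directions in MEC1. *CD274* had 18.0, 18.8 and 18.0 CPM in MEC1-CTRL and 19.6, 22.8 and 20.1 CPM in MEC1-2B17. The arms did not overlap and *CD274* rose 1.14-fold (log2 0.19, SE 0.063, adjusted *P* = 0.023), with replicate 2 of MEC1-2B17 above the others. Without that library the log2 fold change was 0.12 and the call was lost (adjusted *P* = 0.13), and it was also lost without replicate 1 or 3 of MEC1-CTRL (adjusted *P* = 0.065 and 0.052). *PDCD1LG2* had 4.58, 5.06 and 4.82 CPM in MEC1-CTRL and 3.23, 3.71 and 4.04 CPM in MEC1-2B17, at 109 to 174 counts a library. All 3 MEC1-2B17 libraries were below the controls (log2 -0.40, SE 0.11, adjusted *P* = 0.0080). Without replicate 1 of MEC1-2B17, its lowest library, the adjusted *P* was 0.0502.

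In JVM2 neither PD-1 ligand was called. *CD274* had 65.9, 67.3 and 66.8 CPM in the controls and 63.4, 63.2 and 67.3 CPM with UGT2B17 (-0.046, 95% interval -0.18 to 0.088, adjusted *P* = 0.62). *PDCD1LG2* had 18.9, 16.0 and 16.8 CPM against 17.1, 17.7 and 16.97 CPM (0.0013, 95% interval -0.22 to 0.22, adjusted *P* = 0.99). For both genes the JVM2 arms overlapped.

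The other inhibitory molecules changed little between arms. *BTLA* had 129, 127 and 132 CPM in MEC1-CTRL and 144, 143 and 139 CPM in MEC1-2B17, without overlap, a 1.10-fold rise (log2 0.14, SE 0.033, adjusted *P* = 0.0024). In JVM2 it had 146, 173 and 169 CPM in the controls and 175, 177 and 160.2 CPM with UGT2B17 (0.071, 95% interval -0.087 to 0.23, adjusted *P* = 0.50). Its ligand *TNFRSF14* was called higher in MEC1-2B17 (0.17, adjusted *P* = 0.0048) and had a log2 fold change of -0.10 in JVM2 (adjusted *P* = 0.33). *CD200* was low in MEC1, with 3.97, 3.22 and 3.28 CPM in the controls and 3.58, 4.10 and 4.38 CPM with UGT2B17, and these arms overlapped (0.20, 95% interval -0.063 to 0.46, adjusted *P* = 0.22). In JVM2 it had 60.6, 68.2 and 68.8 CPM against 67.7, 64.1 and 70.8 CPM (0.037, 95% interval -0.12 to 0.19, adjusted *P* = 0.74).

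The adhesion and signalling molecules were called in both lines, 1 of them in the same direction and 2 in opposite directions. Over the 12243 genes with a test in each line, 8.37% were called in both with the same direction and 7.43% with opposite directions. *CD48*, the most abundant of the 10 genes, had 475, 479 and 455 CPM in MEC1-CTRL and 551, 564 and 543 CPM in MEC1-2B17 (log2 0.23, SE 0.033, adjusted *P* = 1.1e-05). In JVM2 it had 492, 480.1 and 477 CPM in the controls and 657, 702 and 599 CPM with UGT2B17 (0.43, SE 0.063, adjusted *P* = 2.4e-04). *CD48* thus rose in both lines, with every 2B17 library above every control, and the 2B17 libraries of JVM2 were spread wider than the others. An antisense transcript (ENSG00000228863) shares 30.0% of the exonic bases of *CD48*. It had at most 32 counts in a MEC1 library, where *CD48* had at least 15099, and is not in the JVM2 table. Without strand information, reads of the shared bases cannot be told apart, and these counts do not show how such reads were assigned.

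*CD58*, the ligand of CD2, had 55.9, 56.4 and 56.8 CPM in MEC1-CTRL and 49.2, 49.4 and 49.9 CPM in MEC1-2B17. These replicates lay close together, and the fall was 0.878-fold of control (log2 -0.19, SE 0.040, adjusted *P* = 8.6e-04). In JVM2 *CD58* had 42.0, 44.1 and 44.04 CPM in the controls and 57.1, 63.6 and 57.5 CPM with UGT2B17, a 1.37-fold rise (log2 0.45, SE 0.071, adjusted *P* = 4.4e-04). *SLAMF1* had 167, 162 and 149 CPM in MEC1-CTRL and 124, 117 and 119 CPM in MEC1-2B17 (log2 -0.41, SE 0.041, adjusted *P* = 1.5e-07). In JVM2 *SLAMF1* had 202, 195 and 200.1 CPM in the controls and 253, 266 and 243 CPM with UGT2B17 (log2 0.35, SE 0.056, adjusted *P* = 5.0e-04). Neither gene had overlapping arms in either line, and both were lower with UGT2B17 in MEC1 and higher in JVM2.

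The difference between both lines was then tested as the interaction of line and arm over all 12 libraries. Of 15130 genes, 15.3% were called with a higher log2 change in MEC1 and 16.7% with a lower one. Higher and lower here give the sign of the difference, not the size of the change. *UGT2B17* itself rose more in MEC1, by 0.47 (SE 0.13, adjusted *P* = 0.0077), so the arms of both lines differed by unequal steps of it. Of the 10 genes, 7 were called. The log2 change of *CD80* was higher in MEC1 by 0.54 (SE 0.067, adjusted *P* = 2.7e-06), that of *ICOSLG* by 0.95 (SE 0.19, adjusted *P* = 5.7e-04) and that of *CD274* by 0.24 (SE 0.089, adjusted *P* = 0.046). The log2 change was lower in MEC1 for *SLAMF1* (-0.76, SE 0.076, adjusted *P* = 1.5e-07), *CD58* (-0.63, SE 0.077, adjusted *P* = 2.0e-06), *PDCD1LG2* (-0.39, SE 0.15, adjusted *P* = 0.044) and *CD48* (-0.19, SE 0.073, adjusted *P* = 0.048). The calls of *CD274*, *PDCD1LG2* and *CD48* lay near the threshold and were lost in 8, 9 and 10 of the 12 fits that left out 1 library, whereas those of *CD80*, *ICOSLG*, *CD58* and *SLAMF1* were kept in all 12. *CD86* (0.22, adjusted *P* = 0.064), *CD200* (0.16, adjusted *P* = 0.38) and *BTLA* (0.068, adjusted *P* = 0.57) were not called.

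**Figure D2:**
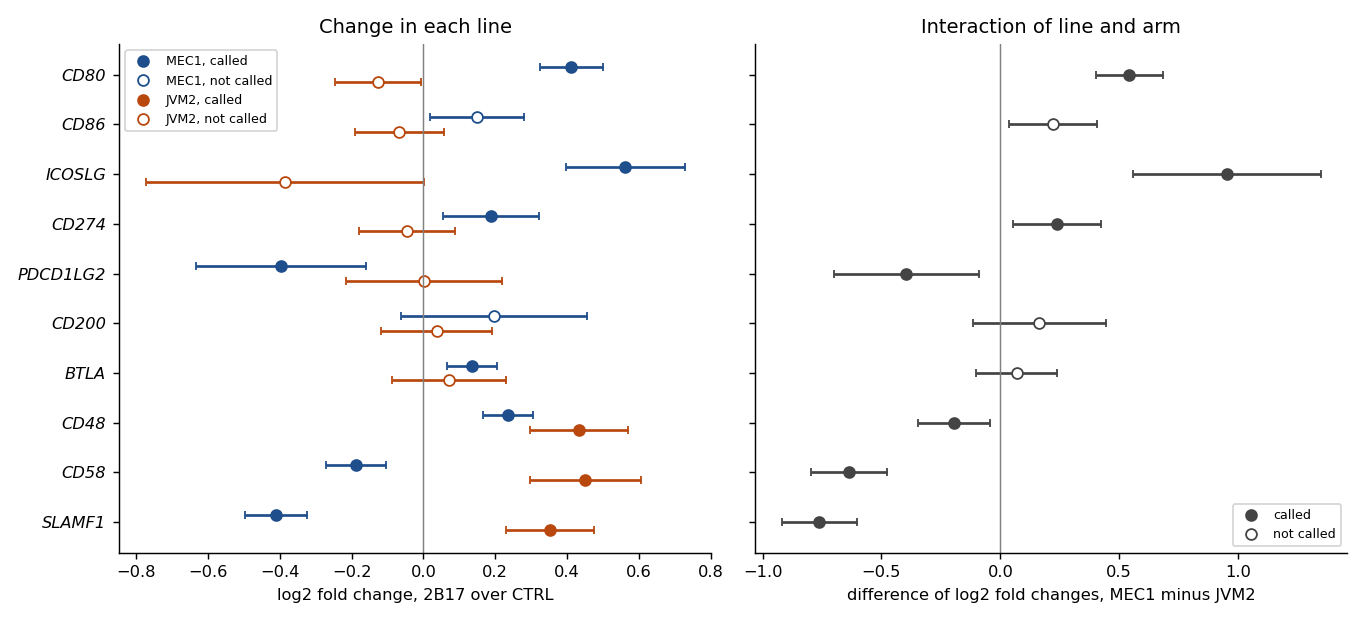
Log2 fold changes of 2B17 over CTRL in MEC1 and JVM2 (left) and their difference, MEC1 minus JVM2 (right), for the 10 genes, with bars for the 95% intervals and filled points for adjusted *P* below 0.05. *CD48* lies to the right of 0 in both lines, *CD58* and *SLAMF1* lie on opposite sides, and *ICOSLG* has the widest interval in JVM2.

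A total of 4 pairs of members with a shared receptor, a shared partner family or adjoining genes were compared as ratios of counts within each library, which library scaling cannot move. In MEC1 the log2 ratio of *CD274* to *PDCD1LG2* went from 1.92 ± 0.044 (SD, n = 3) to 2.51 ± 0.17, that of *CD80* to *CD86* from 0.80 ± 0.12 to 1.06 ± 0.11, and that of *CD48* to *CD58* from 3.06 ± 0.049 to 3.48 ± 0.035. For these 3 ratios the MEC1 arms did not overlap (two-sided exact test by permutation of the libraries, *P* = 0.1, which 3 against 3 cannot undercut, and 0.27 after adjustment over the 8 tests). The ratio of *CD200* to *BTLA* was -5.21 ± 0.17 in MEC1-CTRL and -5.14 ± 0.17 in MEC1-2B17 (exact permutation *P* = 0.7). In JVM2 the 4 ratios differed between arms by -0.059 to -0.020 (exact permutation *P* = 0.2 to 0.8), and the ratio of *CD48* to *CD58* was 3.48 ± 0.061 in the controls and 3.45 ± 0.072 with UGT2B17, where both genes rose.

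At baseline, the lines differed in all 10 genes. JVM2-CTRL was above MEC1-CTRL for 8 of them and below for *ICOSLG* and *CD58*, beside 39.8% and 41.3% of the 14705 genes tested that were higher and lower in JVM2-CTRL. Here 81.1% of all genes were called, so the calls themselves set the 10 genes apart from few others. *UGT2B17* differed as well and was 2.83-fold higher in JVM2-CTRL (log2 1.50, SE 0.081, edgeR adjusted *P* = 2.7e-13). Line, control construct, antibiotic, *UGT2B17* level, sequencing depth and any difference in sequencing site cannot be told apart. The median difference over the 10 genes was 0.87 on the log2 scale, against -0.038 over all genes. Control libraries of both lines were scaled together for the following levels.

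*CD200* had the largest baseline difference, from 3.34 ± 0.41 CPM (mean ± SD, n = 3) for MEC1-CTRL up to 70.6 ± 5.0 CPM for JVM2-CTRL, 21.0-fold higher (log2 4.39, SE 0.089, adjusted *P* = 1.0e-20). *CD86* was 5.68-fold higher in JVM2-CTRL, at 180.4 ± 3.8 CPM against 31.7 ± 2.9 CPM (log2 2.51, SE 0.053, adjusted *P* = 2.6e-20). The PD-1 ligands were higher by like factors, *CD274* 4.09-fold (17.5 ± 0.44 against 71.4 ± 0.87 CPM, log2 2.03, SE 0.055) and *PDCD1LG2* 4.02-fold (4.60 ± 0.22 against 18.5 ± 1.6 CPM, log2 2.01, SE 0.097). For these 4 genes the lowest JVM2-CTRL library was above the highest MEC1-CTRL library by far more than either group's spread. *CD80* was 2.37-fold higher (log2 1.25, SE 0.044), *BTLA* 1.41-fold (0.50, SE 0.052), *SLAMF1* 1.40-fold (0.48, SE 0.049) and *CD48* 1.15-fold (0.21, SE 0.039). *ICOSLG* and *CD58* were 0.691-fold (-0.53, SE 0.13, adjusted *P* = 6.0e-04) and 0.864-fold (-0.21, SE 0.049, adjusted *P* = 5.6e-04) of the MEC1-CTRL level. The difference of *CD48* rested on the scaling: with library size only it was 0.048 (adjusted *P* = 0.25), a setting that moved the median of all genes from -0.038 to -0.20, and relative to that median *CD48* again stood above it.

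Between genes, levels were compared as RPKM, the CPM per kilobase of exon in GENCODE v44, with the 12 libraries scaled together. In MEC1-CTRL the order ran from *CD48* (137 ± 4.0 RPKM) over *SLAMF1* (37.7 ± 2.3), *BTLA* (34.0 ± 0.60), *CD58* (30.0 ± 0.16), *CD80* (17.01 ± 0.75), *CD86* (9.16 ± 0.83), *CD274* (4.23 ± 0.11), *PDCD1LG2* (1.88 ± 0.091) and *CD200* (1.11 ± 0.13) down to *ICOSLG* (0.389 ± 0.019), and the libraries of neighbours in this order did not overlap. In MEC1-2B17 *BTLA* (37.4 ± 0.66 RPKM) stood above *SLAMF1* (28.4 ± 0.91), while *PDCD1LG2* (1.43 ± 0.16) and *CD200* (1.28 ± 0.13) overlapped. JVM2-CTRL kept *CD48* at the top (159 ± 2.7 RPKM) and *ICOSLG* at the bottom (0.270 ± 0.039), with *CD86* (52.3 ± 1.3) now level with *SLAMF1* (52.9 ± 1.0), whose libraries it overlapped. Below them came *BTLA* (48.1 ± 4.1), *CD80* (40.4 ± 0.36), *CD58* (26.0 ± 0.65), *CD200* (23.5 ± 1.6), *CD274* (17.3 ± 0.16) and *PDCD1LG2* (7.57 ± 0.68). In JVM2-2B17 *CD48* reached 214 ± 18 RPKM and *SLAMF1* 67.6 ± 3.5, while *BTLA* and *CD86* (50.5 ± 3.0 and 49.9 ± 2.3) overlapped, as did *CD80* and *CD58* (37.0 ± 0.92 and 35.5 ± 2.4). The annotated exons of *ICOSLG* sum to 19441 bases, against 1784 to 4108 for the other 9 genes, and its RPKM is lowered by any part of them that these cells do not transcribe. By CPM, *ICOSLG* stood above *PDCD1LG2* and *CD200* in MEC1-CTRL (7.57 against 4.57 and 3.32 CPM), so its last place there rests on this length. In JVM2-CTRL it was the lowest by CPM as well (5.26 CPM). How reads were assigned where exons of *CD80* and *CD48* overlap other genes is not known, which also bears on their RPKM.

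**Figure D3:**
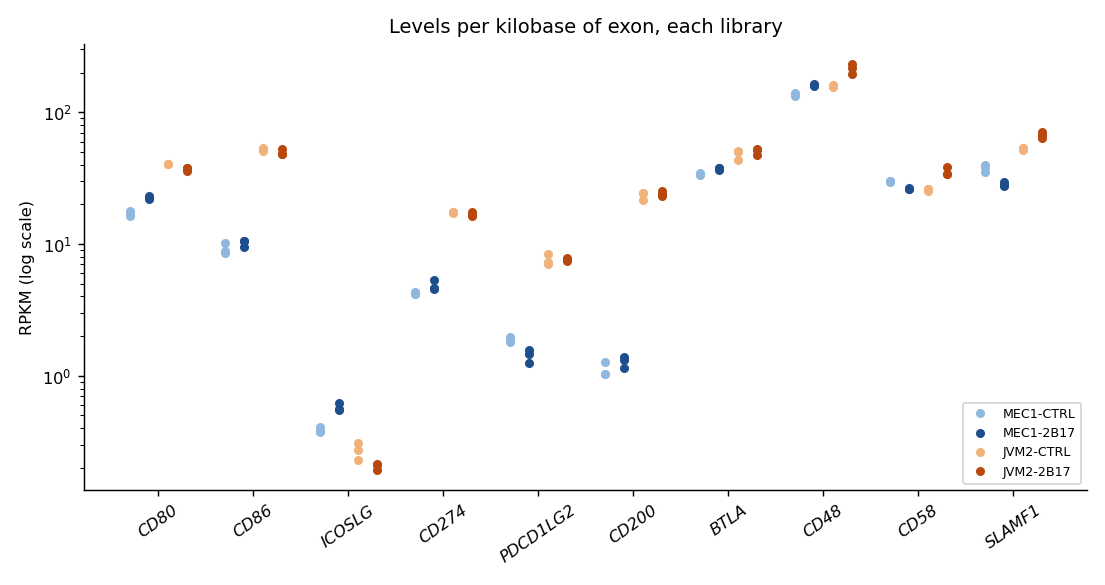
RPKM on a log scale of the 10 genes in each library, coloured by population, 3 points a population. *CD48* is at the top and *ICOSLG* at the bottom in each population, and *CD200* spans from a mean of 1.11 RPKM in MEC1-CTRL to 24.1 RPKM in JVM2-2B17.

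Other molecules that engage T and NK cells were read from a list of 37 genes. In MEC1, 28 had enough counts, of which 11 were higher and 9 lower in MEC1-2B17, beside 20.0% and 21.6% over all genes, and the median change was 0.021 on the log2 scale. In JVM2, 27 were tested, of which 2 were higher and 6 lower, beside 14.1% and 15.3% over all genes, with a median of -0.078. The share called in either direction was thus close to the 29.3% of all genes in JVM2 and above the 41.7% in MEC1. *TNFSF4*, the ligand of the T-cell costimulator OX40, fell from 6.59 ± 0.59 to 4.06 ± 0.21 CPM in MEC1 (-0.70, SE 0.10) and rose from 14.6 ± 0.63 to 27.1 ± 3.7 CPM in JVM2 (0.89, SE 0.11), a difference between lines of -1.59 (adjusted *P* = 7.7e-08). *ICAM1* and *ICAM3*, ligands of the integrin LFA-1, rose in MEC1 (0.37 and 0.32) and fell in JVM2 (-0.31 and -0.30), and so did *TNFSF9*, the ligand of 4-1BB (0.28 and -0.20), each with an interaction past the threshold (0.68, 0.62 and 0.48). The falls of *ICAM1* and *TNFSF9* in JVM2 lay near the threshold (edgeR adjusted *P* = 0.034 and 0.043, against 0.0035 for *ICAM3*). These 3 moved against the direction of *CD58* and *SLAMF1* in each line.

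*CLEC2D*, which encodes a ligand of the NK cell receptor KLRB1, fell in both lines. MEC1 went from 13.6 ± 0.41 to 6.62 ± 0.35 CPM (-1.04, SE 0.076, adjusted *P* = 2.1e-09), JVM2 from 133 ± 8.3 to 102 ± 4.0 CPM (-0.39, SE 0.065, adjusted *P* = 6.4e-04). The B7 family gene *CD276* also fell in both, from 58.2 ± 1.6 to 48.2 ± 5.3 CPM in JVM2 (-0.27, adjusted *P* = 0.025) and from 0.419 ± 0.076 to 0.152 ± 0.048 CPM in MEC1 (-1.43, adjusted *P* = 0.0048), where it was barely expressed. In MEC1 it had at most 17 counts in a control library and 7 in a 2B17 library, and passed the filter on low counts through the controls alone. Of the 8 NK cell receptor ligands on the list, 6 were tested in MEC1, with 2 higher, 2 lower and 2 not called, beside 20.0% higher and 21.6% lower over all genes. Those that rose encode ligands of activating receptors, *NCR3LG1* from 0.781 ± 0.16 to 2.21 ± 0.11 CPM (1.51, adjusted *P* = 1.9e-06) and *ULBP1* from 1.53 ± 0.31 to 3.25 ± 0.30 CPM (1.08, adjusted *P* = 1.6e-05). *MICA* and *MICB*, whose products also bind an activating receptor, were those not called (0.066 and -0.067, adjusted *P* = 0.61 and 0.23). *LGALS9*, which encodes galectin-9, fell in MEC1 (-0.49, SE 0.081, adjusted *P* = 6.2e-05). In JVM2 the B7 family gene *HHLA2* fell from 12.2 ± 1.1 to 3.53 ± 0.62 CPM (-1.78, SE 0.16, adjusted *P* = 3.8e-06). *PVR*, the ligand of TIGIT and CD226, rose there from 0.262 ± 0.15 to 4.14 ± 0.35 CPM (3.90, SE 0.34, adjusted *P* = 3.0e-06). It had at most 4 counts in a JVM2-CTRL library and 45 in a JVM2-2B17 library. *PVR* passed the filter on low counts through JVM2-2B17 alone, so its fold change and *P* rest on near-absent control counts. Of the SLAM family genes besides the members, 1 was higher and 2 were lower among 6 tested in MEC1, beside the same shares over all genes. The higher one was *SLAMF6* (0.24, adjusted *P* = 1.0e-04), which had a log2 fold change of 0.0052 in JVM2 (adjusted *P* = 0.97).

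**Figure D4:**
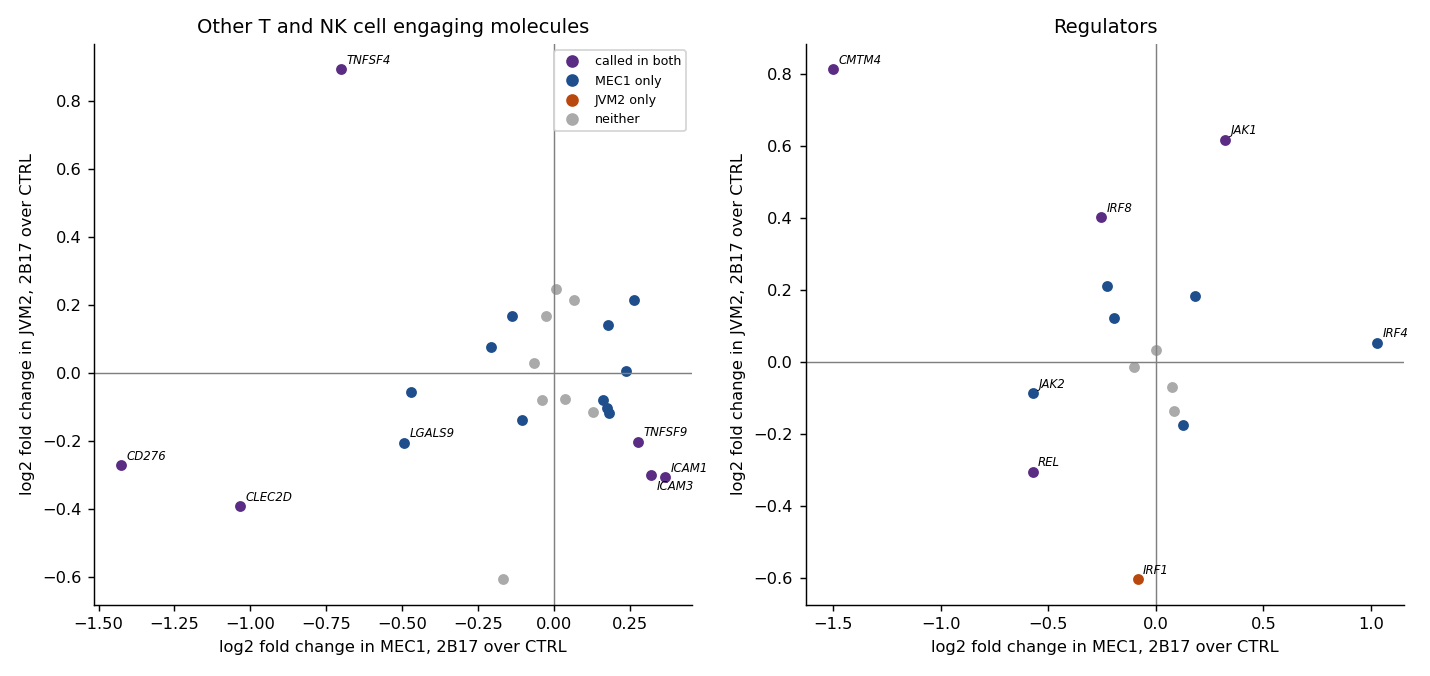
Log2 fold changes of 2B17 over CTRL in JVM2 against those in MEC1 for the 25 other T and NK cell engaging genes (left) and for 15 of the 16 regulators (right) tested in both lines, coloured by the lines in which they were called. *TNFSF4* and *CMTM4* lie in the upper left, lower in MEC1 and higher in JVM2, and *ICAM1*, *ICAM3* and *TNFSF9* in the lower right.

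Of 20 genes for transcription factors, kinases and protein partners known to act on these molecules, 17 were tested in MEC1, with 4 higher and 8 lower, beside 20.0% and 21.6% over all genes. In JVM2, 16 were tested, with 3 higher and 3 lower, beside 14.1% and 15.3%. *CMTM4*, whose product protects PD-L1 from degradation, fell from 2.18 ± 0.47 to 0.763 ± 0.086 CPM in MEC1 (-1.50, SE 0.20) and rose from 3.81 ± 0.35 to 6.76 ± 0.93 CPM in JVM2 (0.81, SE 0.17). *CMTM6*, which has the same role, had log2 fold changes of -7.9e-04 and 0.035 and was called in neither line (adjusted *P* = 0.99 and 0.79). *IRF4*, a transcription factor of activated B cells, rose in MEC1 (1.03, SE 0.026, adjusted *P* = 1.2e-15) and had a log2 fold change of 0.054 in JVM2 (adjusted *P* = 0.45). *BCL6*, a transcriptional repressor active in germinal centre B cells, fell in MEC1 from 4.07 ± 0.30 to 2.08 ± 0.39 CPM (-0.97, adjusted *P* = 1.5e-05). The NF-kappa B subunit *REL* fell in both lines (-0.57 and -0.30), and the interferon signalling kinase *JAK1* rose in both (0.32 and 0.62). *IRF8* fell in MEC1 and rose in JVM2 (-0.25 and 0.40), while *IRF1*, an activator of *CD274*, fell in JVM2 (-0.60, adjusted *P* = 1.5e-05) and had -0.086 in MEC1 (adjusted *P* = 0.058). *JAK2*, which lies before *CD274* on chromosome 9, fell in MEC1 (-0.57, adjusted *P* = 1.1e-06) where *CD274* rose.

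Since several members adjoin, the genes that start within 1 Mb of a member were counted with the members left out. In MEC1, 26 of 161 such genes were higher and 39 lower, beside 20.0% and 21.6% over all genes. In JVM2, 16 of 124 were higher and 15 lower, beside 14.1% and 15.3%, so that in both lines the neighbours were called about as often as genes at large. At baseline 74 of 146 were higher and 38 lower in JVM2-CTRL, beside 39.8% and 41.3% over all genes, for a median of 0.22 against -0.038 over all genes. Around *CD274*, 14 of 15 neighbours were higher in JVM2-CTRL (median 0.87), and the remaining one, *RLN1*, named after its value was seen, had 0.86 (adjusted *P* = 0.11). Around *CD200* 10 of 13 neighbours were higher (median 0.90), and around *CD86* 14 of 21 (median 0.61), whereas around *ICOSLG* 15 of 30 were lower and 7 higher (median -0.29). The neighbourhoods of *CD274* and *PDCD1LG2*, and those of *CD200* and *BTLA*, consist largely of shared genes.

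Of the nearest tested genes on each side, some moved with the member between arms and others did not. *PLGRKT* and *RIC1*, which flank the PD-1 ligand genes, had log2 fold changes of -0.0011 and 0.060 in MEC1 (adjusted *P* = 0.99 and 0.24), where *CD274* rose and *PDCD1LG2* fell, and *RIC1* fell in JVM2 (-0.20, adjusted *P* = 0.023), where neither was called. *SLC35A5*, beside *BTLA*, had -0.0071 in MEC1 and 0.054 in JVM2 (adjusted *P* = 0.92 and 0.65), and the other flanking gene of *CD200* and *BTLA*, *RP11-757F18.5*, rose in MEC1 as *BTLA* did (0.78, adjusted *P* = 0.0051). *SLAMF7*, beside *CD48*, was lower in MEC1 (-0.10, adjusted *P* = 0.019), and *CD84*, beside *SLAMF1*, was called in neither line (-0.17 and -0.61, adjusted *P* = 0.37 and 0.054). *IGSF3*, beside *CD58*, fell in both lines (-3.24 and -1.22), in MEC1 in the direction of *CD58* and in JVM2 against it, while the flanking pseudogene *NAP1L4P1* was called in neither (adjusted *P* = 0.81 and 0.37). Beside *CD80*, *ADPRH* was called in neither line (0.090 and 0.16, adjusted *P* = 0.075 and 0.072), and beside *CD86*, *ILDR1* rose in JVM2 (0.27, adjusted *P* = 0.022) and *CSTA* rose in MEC1 (0.98, adjusted *P* = 3.8e-06). The non-coding neighbours of *ICOSLG* were tested in MEC1 alone, with *AP001056.1* lower (-0.58, adjusted *P* = 2.0e-04) and *AP001059.6* at -0.43 (adjusted *P* = 0.20). *RP11-404F10.2*, the antisense transcript between *SLAMF1* and *CD48*, had 0.59 in MEC1 (adjusted *P* = 0.25).

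**Figure D5:**
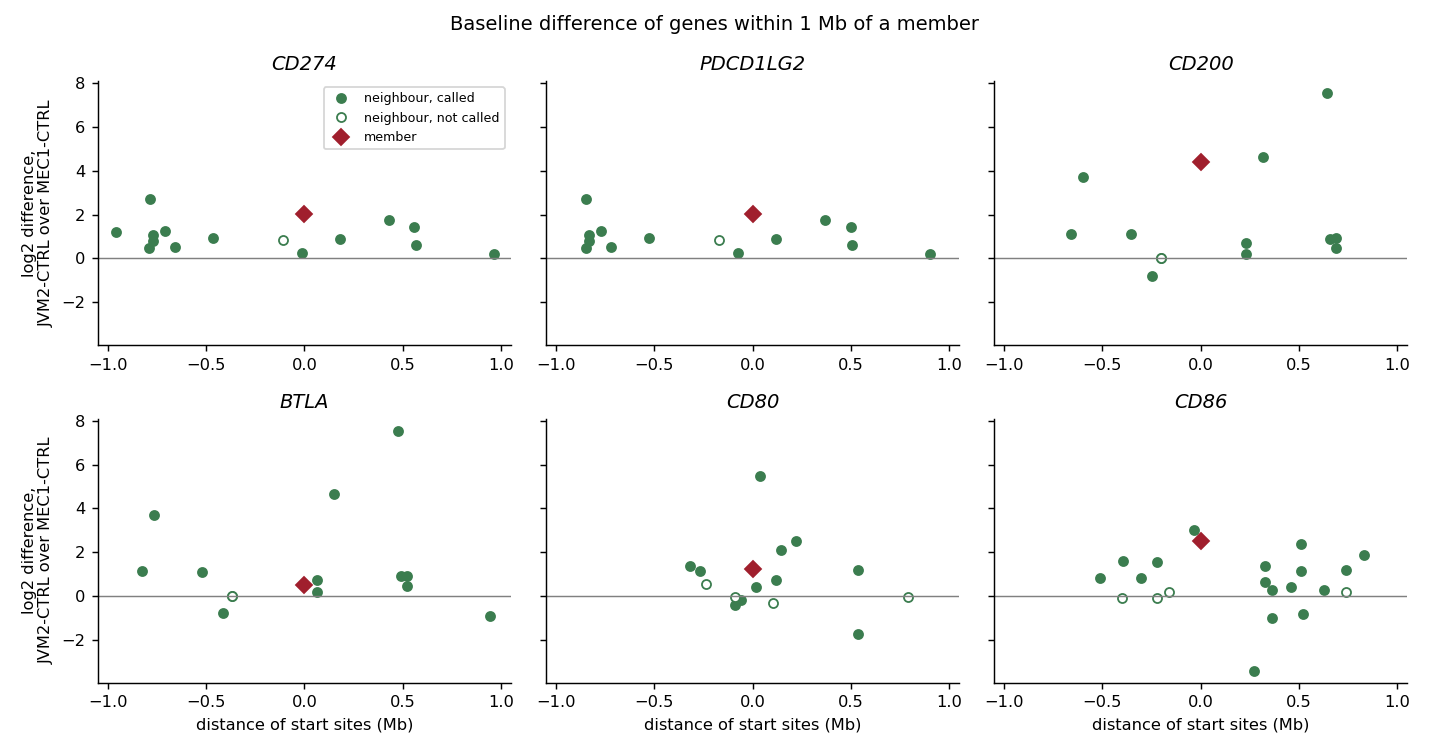
Log2 difference of JVM2-CTRL over MEC1-CTRL for genes that start within 1 Mb of 6 members, against the distance of their start sites in Mb, with filled points for adjusted *P* below 0.05 and a diamond for the member. Around *CD274* and *PDCD1LG2* all points lie above 0, and *CD200* lies above most of its neighbours.

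Markers of T, NK and myeloid cells each summed to at most 26.0 CPM in a library, and apart from the NK-cell markers in JVM2 their sums did not overlap between the arms of a line. Of 6 T-cell markers, 4 are in the MEC1 table, with a summed level of 7.32 to 8.25 CPM in MEC1-CTRL and 2.49 to 2.81 CPM in MEC1-2B17, and *CD28* alone is in the JVM2 table, at 2.44 to 2.99 CPM in the controls and 0 with UGT2B17. *CD3D* and *CD4* are in neither table, and *CD3E*, *CD3G* and *CD8A* each had a mean of at most 0.152 CPM in a MEC1 population. The 4 NK-cell markers summed to 23.7 to 26.0 CPM in MEC1-CTRL and 8.94 to 10.1 CPM in MEC1-2B17, most of it *GNLY*, and the 3 in the JVM2 table to 1.69 to 2.99 and 1.47 to 3.60 CPM. Myeloid markers, 5 in MEC1 and 3 in JVM2, summed to 2.35 to 2.92 and 4.74 to 5.30 CPM in the MEC1 arms. In the JVM2 arms they summed to 5.41 to 6.58 and 11.1 to 13.8 CPM. This rise was mostly that of *ITGAM*, with means of 1.29 and 3.89 CPM in the MEC1 arms and 4.87 and 11.3 CPM in the JVM2 arms. *CSF1R* was called lower in MEC1 (-0.71, edgeR adjusted *P* = 0.041), where *LYZ* was not called (0.49, adjusted *P* = 0.20). *CD14* and *FCGR3A* each had a mean of at most 0.0915 CPM in a MEC1 population. B-cell markers summed to 3576 to 3662 CPM in MEC1-CTRL and 3269 to 3430 in MEC1-2B17, and to 3356 to 3485 and 3237 to 4131 CPM in the JVM2 arms. The 3 plasma-cell markers, *SDC1*, *PRDM1* and *XBP1*, summed to 432 to 448 CPM in MEC1-CTRL and 466 to 503 in MEC1-2B17, and to 779 to 804 and 539 to 558 CPM in the JVM2 arms. The part of these movements in the results of the 10 genes was not tested.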

How the data were processed

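RNA of 12 libraries, 3 biological replicates of each of 4 populations, was sequenced by the authors with paired ends after depletion of ribosomal RNA. The paper names both Genome Québec at McGill University and the CHU de Québec Research center as sequencing sites, without saying which libraries each ran. Per the labels, reads were processed with Trimmomatic, TopHat2 2.0.14 and HTSeq on hg38, and the strand setting and annotation release are not given in the sources used here. The authors deposited raw counts per Ensembl gene and library in 1 table a line, each listing genes with at least 10 counts in total. The tables also hold the authors' fold changes, P-values and rounded normalized values, which were not used. Samples were grouped by their titles.

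Counts were tested with edgeR 4.0.16 (TMM, filterByExpr, quasi-likelihood F-test) in R 4.3.3, with adjustment over all genes tested. Each line was fitted on its own, the control libraries of both lines together for the baseline, and all 12 libraries for the interaction, over genes in both tables. Standard errors came from the F statistic, and the script was tested on simulated data. The common biological coefficient of variation was 4.22% in MEC1 and 6.92% in JVM2. Pairs of replicates differed by a mean chi-square of 2.14 to 7.89 per gene, so each was counted as a sample of its own. Counting error and replicate spread limit the precision, most in JVM2, which was sequenced less deeply. The replicates were taken within each population. Standard errors and *P* values therefore describe the spread within populations, not that between populations made separately. Ratios of members, with 0.5 added to each count, were compared by exact permutation tests in Python 3.11.15. Positions and exon lengths came from GENCODE v44 and promoters from RefSeq.

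The members and lists were chosen with earlier results of these data known. Named genes are the members, *UGT2B17*, from the list of engaging molecules and that of regulators the 5 called genes with the largest change in each line at a mean of at least 1 CPM and every gene called in both lines, and the nearest tested gene on each side of each member. Some genes of the lists are counted but not reported here by name. *TNFRSF14*, *CMTM6*, *SLAMF6* and *RLN1* were added after their values were seen. The alternatives were DESeq2 1.42.0, a call by both tools, scaling by RLE or by library size only, no filter or one of 10 counts in every library, a block for the replicate number, other pseudocounts for the ratios and each replicate left out in turn. Deviations of same-numbered CTRL and 2B17 libraries from their group means had correlations of -0.099 to 0.097, so the numbers were not taken to pair the samples.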

Additional observations from a re-analysis of the deposited data

Results flagged for a closer look

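The change with UGT2B17 overexpression differed between the lines for 7 of the 10 genes, by the test of the line-by-arm interaction in edgeR over all 12 libraries, beside 32.0% of all genes tested. The log2 change in MEC1 minus that in JVM2 was 0.54 for *CD80*, 0.95 for *ICOSLG* and 0.24 for *CD274* (adjusted *P* = 2.7e-06, 5.7e-04 and 0.046). It was -0.39 for *PDCD1LG2*, -0.19 for *CD48*, -0.63 for *CD58* and -0.76 for *SLAMF1* (adjusted *P* = 0.044, 0.048, 2.0e-06 and 1.5e-07). For *CD58* and *SLAMF1* the change was called in both lines with opposite directions, while for *CD48* both lines rose, with the larger estimate in JVM2. The interaction calls of *CD274*, *PDCD1LG2* and *CD48* were lost in 8, 9 and 10 of the 12 fits with a library left out. For *CD80*, *ICOSLG*, *CD274* and *PDCD1LG2* the change was called in MEC1 alone. With each replicate left out in turn, 4 to 6 of the 10 genes were called in the interaction. *UGT2B17* itself rose by 0.94 in MEC1 and 0.48 in JVM2 (interaction 0.47, SE 0.13, edgeR adjusted *P* = 0.0077). The MEC1 and JVM2 controls carried different constructs under different antibiotics, and MEC1-CTRL is labelled as a repression of *UGT2B17*. These differences cannot be told apart from the line.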

How the results depend on the processing

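The number of the 10 genes called lay within 1.5 times of that reported under every alternative that kept all replicates, and directions of their changes were kept apart from *PDCD1LG2* in JVM2, which was not called and stood at -0.0045 with library size only and -2.6e-04 with the replicate block. With each replicate left out in turn, 7 to 8 genes were called in MEC1, 3 in JVM2, 10 at baseline and 4 to 6 in the interaction. The interaction count was 4 without replicate 2 or 3 of JVM2-CTRL or replicate 1 of JVM2-2B17. In JVM2, where none of the 3 was called, *PDCD1LG2* ranged from -0.053 to 0.076 when a replicate was left out (below 0 without replicate 2 or 3 of JVM2-CTRL or replicate 2 of JVM2-2B17), *CD200* from -0.018 to 0.073 (below 0 without replicate 1 of JVM2-CTRL) and *BTLA* from 0.0025 (without replicate 1 of JVM2-CTRL) to 0.12, the cause of which was not tested. The differences in log2 ratio that changed sign were *CD274* to *PDCD1LG2* in JVM2 (0.0080 without replicate 2 of JVM2-CTRL), *CD48* to *CD58* in JVM2 (0.015 without replicate 1 of JVM2-CTRL and 0.017 without replicate 3 of JVM2-2B17), and *CD200* to *BTLA* in JVM2 (0.029 without replicate 2 of JVM2-2B17) and in MEC1 (-0.0092 without replicate 3 of MEC1-2B17). In JVM2, the other engaging molecules called were 5 to 12 (lowest without replicate 1 or 2 of JVM2-CTRL, against 8), and the neighbouring genes called were 19 to 39 (lowest without replicate 2 of JVM2-CTRL, and 20 without replicate 3, against 31). The interaction call of *CD274* was kept without replicate 2 of MEC1-CTRL, replicate 1 or 3 of MEC1-2B17 or replicate 3 of JVM2-2B17 and lost without each other library, with RLE scaling, library size only, no filter and DESeq2 (adjusted *P* = 0.0502 to 0.053 for these settings). That of *PDCD1LG2* was kept without replicate 1 of MEC1-CTRL, replicate 3 of MEC1-2B17 or replicate 1 of JVM2-CTRL and lost without each other library and with DESeq2 (adjusted *P* = 0.055). That of *CD48* was kept without replicate 3 of MEC1-CTRL or of JVM2-2B17 and lost without each other library, with an adjusted *P* of up to 0.11. *CD86* was called in the interaction without replicate 1 of MEC1-CTRL or replicate 2 of MEC1-2B17 or JVM2-2B17, and in MEC1 also without replicate 2 of MEC1-2B17 (adjusted *P* = 0.016).

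The replicate numbers did not pair the samples: of same-numbered libraries no line had every correlation over 0.1, and not every library correlated best with its own number. With the replicate block 9 of the 10 genes were called in MEC1, *CD86* being added (adjusted *P* = 0.030), 3 in JVM2 and 10 at baseline. In the interaction 7 were called with the block, with *CD86* in (adjusted *P* = 0.036) and *PDCD1LG2* out (adjusted *P* = 0.052). Over all genes the block gave 6897 calls in MEC1 and 4236 in JVM2, against 6909 and 3821. The lower depth of JVM2 limits *ICOSLG* most, at 31 to 56 counts a library.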

Other observations

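*CD28*, which encodes the costimulatory receptor of CD80 and CD86 and is best known from T cells, was itself lower with UGT2B17 in both B-cell lines. It had 294, 242 and 267 counts in the MEC1-CTRL libraries and 72, 79 and 81 in those of MEC1-2B17, or 7.60 ± 0.52 against 2.37 ± 0.22 CPM (mean ± SD, n = 3), which is -1.68 on the log2 scale (SE 0.11, edgeR adjusted *P* = 5.2e-10). In JVM2 it had 30, 32 and 23 counts in the controls and 0 in each JVM2-2B17 library, at least 8.87-fold lower against a floor of 3 counts a library, where the floor covers counting error only.

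Of 7 B-cell markers, 2 were higher and 4 lower with UGT2B17 in MEC1, beside 20.0% and 21.6% of all genes tested. In JVM2, 3 were higher and 1 lower, beside 14.1% and 15.3%. *MS4A1*, which encodes CD20, fell in MEC1 and rose in JVM2 (-0.58 and 0.40, adjusted *P* = 3.9e-11 and 3.8e-04), the directions of *CD58* and *SLAMF1*. *CD79A*, a part of the B-cell receptor, did the opposite (0.28 and -0.39, adjusted *P* = 5.9e-06 and 0.017), and *CD22*, an inhibitory coreceptor of B cells, rose in both lines (0.36 and 0.38, adjusted *P* = 1.5e-07 and 0.029). The 3 plasma-cell markers differed in direction in MEC1 and all fell in JVM2, where 15.3% of all genes tested were called lower. *PRDM1*, the master regulator of plasma cells, fell in both lines, MEC1 from 2.45 ± 0.073 to 0.889 ± 0.10 CPM, JVM2 from 93.9 ± 2.2 to 31.3 ± 4.1 CPM (-1.46 and -1.58, adjusted *P* = 8.3e-07 and 4.4e-08). *SDC1*, which encodes CD138, rose in MEC1 and fell in JVM2 (0.77 and -0.48, adjusted *P* = 1.0e-11 and 3.1e-05), and *XBP1*, a transcription factor of secretory cells, was not called in MEC1 (0.0076, adjusted *P* = 0.90) and fell in JVM2 (-0.39, adjusted *P* = 3.0e-04). These genes were chosen from the marker lists after their values were seen.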
